A study of Mus musculus with 18 samples.

Results

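Dense regions are stretches of the macrophage genome with accessible sites so close together that 5 or more fall into a single extended region. Extended regions equal reference peaks widened by 700 bp and joined, and whether one acts as a regulatory unit was not tested. The members were chosen by the number of reference peaks that an extended region contained on chromosomes 1 to 19, and 652 of 58386 autosomal extended regions (1.12%, 95% Wilson interval 1.03% to 1.21%) held 5 or more. Peak number, and with it width and summit number, are therefore values the members were selected on and are given as a description only. Another 8 extended regions with 5 or more peaks lay on other chromosomes and were not members. The whole list held 59617 extended regions.

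The regions come from ATAC-seq, an assay that marks open chromatin through the adapters that the Tn5 enzyme places in it. The cells were bone marrow-derived macrophages (BMDMs), obtained by culturing marrow precursors of wild type male C57/BL6 mice aged 6 to 8 weeks. All of them, the controls included, received the vehicle DMSO for 1 h and were then left untreated or were given lipopolysaccharide (LPS) or IL-4 at 10 ng/mL for 30 min, 1 h, 2 h or 4 h. The 18 libraries formed 9 groups of 2. The authors pooled all libraries into a single list of peaks, a single list of summits and a single list of extended regions, without a column per library. Which stimulus or time point opened a given peak, the spread between replicates and the depth of each library were therefore not analysed here, no test between groups could be made, and intervals cover counting error only.

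As background, an ATAC-seq peak at a gene start marks the promoter, where transcription begins, and peaks between or inside genes are candidate enhancers, which bind transcription factors and act on promoters at a distance. Past the annotated end of a gene, RNA polymerase is released from its template. In macrophages, LPS acts through Toll-like receptor 4 and activates NF-kB and interferon regulatory factors, and PU.1, C/EBP, AP-1 and RUNX factors maintain the enhancers of the cell type.

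The sequences at the strongest accessible sites of the most peak-rich dense regions are shown first. For each of the 6 regions with the most peaks whose summits all lay in sequence found once, the window covers 201 bases around the best scored summit that was clear of annotated exons. It was read from GRCm38.p6, which has the coordinates of mm10, on the plus strand from 5′ to 3′, and capitals mark any match to the consensus motifs searched.
Rasgef1b chr5:99214518-99214718: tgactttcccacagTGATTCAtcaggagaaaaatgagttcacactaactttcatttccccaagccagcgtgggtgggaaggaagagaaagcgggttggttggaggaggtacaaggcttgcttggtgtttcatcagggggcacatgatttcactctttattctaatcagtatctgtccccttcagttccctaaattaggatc
Tnfaip2 chr12:111441694-111441894: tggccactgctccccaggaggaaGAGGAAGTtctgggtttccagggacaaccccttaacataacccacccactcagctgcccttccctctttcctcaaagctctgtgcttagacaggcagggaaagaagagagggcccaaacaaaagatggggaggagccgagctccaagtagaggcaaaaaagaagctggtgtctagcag
Tnfaip3 chr10:19009473-19009673: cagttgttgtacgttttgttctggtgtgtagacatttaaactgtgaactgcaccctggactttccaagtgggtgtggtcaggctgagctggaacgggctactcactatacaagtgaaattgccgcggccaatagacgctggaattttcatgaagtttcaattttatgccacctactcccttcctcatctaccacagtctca
Plek chr11:16969732-16969932: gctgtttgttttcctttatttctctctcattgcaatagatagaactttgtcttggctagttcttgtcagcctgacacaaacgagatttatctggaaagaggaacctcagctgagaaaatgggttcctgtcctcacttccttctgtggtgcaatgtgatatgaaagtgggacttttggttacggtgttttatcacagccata
Plec chr15:76204225-76204425: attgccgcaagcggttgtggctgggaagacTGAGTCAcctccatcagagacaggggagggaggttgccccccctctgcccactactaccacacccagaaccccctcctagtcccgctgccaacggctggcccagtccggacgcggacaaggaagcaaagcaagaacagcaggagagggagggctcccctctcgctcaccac
Mx1 chr16:97445421-97445621: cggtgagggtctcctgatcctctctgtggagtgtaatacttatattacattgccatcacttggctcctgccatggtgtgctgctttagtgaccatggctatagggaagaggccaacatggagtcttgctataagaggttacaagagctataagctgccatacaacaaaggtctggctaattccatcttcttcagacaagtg
The window at Rasgef1b contained an AP-1 match (TGANTCA), as did the window at Plec, and the window at Tnfaip2 contained a PU.1/ETS match (GAGGAAGT). The windows at Tnfaip3, Plek and Mx1 contained none of the 11 consensus sequences. The summits at Rasgef1b, Plek and Mx1 lay past the annotated end of the gene, those at Tnfaip3 and Plec in introns, and the summit at Tnfaip2 lay before the gene.

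Dense regions were much wider than a typical region and contained both strong and weak sites. They covered 3736 kb, or 3.28% of the length of all autosomal regions, and held 4050 of 80800 autosomal reference peaks (5.01%, interval 4.86% to 5.16%) and 4424 of 83038 summits (5.33%, 5.18% to 5.48%). Their median width was 5262 bp (quartiles 4548 and 6234 bp, range 2960 to 61924 bp), compared with 1651 bp over all autosomal regions. Most were near the threshold, with 5 peaks in 370 regions, 6 in 137, 7 to 9 in 109 and 10 or more in 36. Just outside it, the 1018 regions with 4 peaks had a median width of 3932 bp and a median best summit score of 1480. Just inside, the regions with 5 peaks had a median width of 4767 bp and a median best score of 1568.

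The score is the authors' value for each summit in the merged call, and its scale is not stated. The best summit of a dense region had a median score of 1606 and the lowest a median of 341, with a median ratio of best to lowest of 4.38 (quartiles 3.14 and 6.13). Over all summits the median was 737 in dense regions (quartiles 448 and 1176) and 737 on all autosomes (486 and 1153). A region with more summits has more chances of a high and of a low one, so that best and lowest scores are given as a description. At gene starts, summits of dense regions scored a median of 867, below the 1082 of all autosomal summits at starts and equal to the 867 of regions with 4 peaks. Away from starts the median was 675 in dense regions and on all autosomes, and 737 in regions with 4 peaks. Neighbouring summits in dense regions lay a median of 600 bp apart (quartiles 397 and 966 bp), and 12.8% of these distances were under 300 bp. Over all autosomal regions the median was 623 bp and the share 11.6%, and in regions with 4 peaks they were 652 bp and 9.65%. Peaks with 2 or more summits made up 6.94% of the peaks in dense regions and 2.48% of all autosomal peaks.

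**Figure D1:**
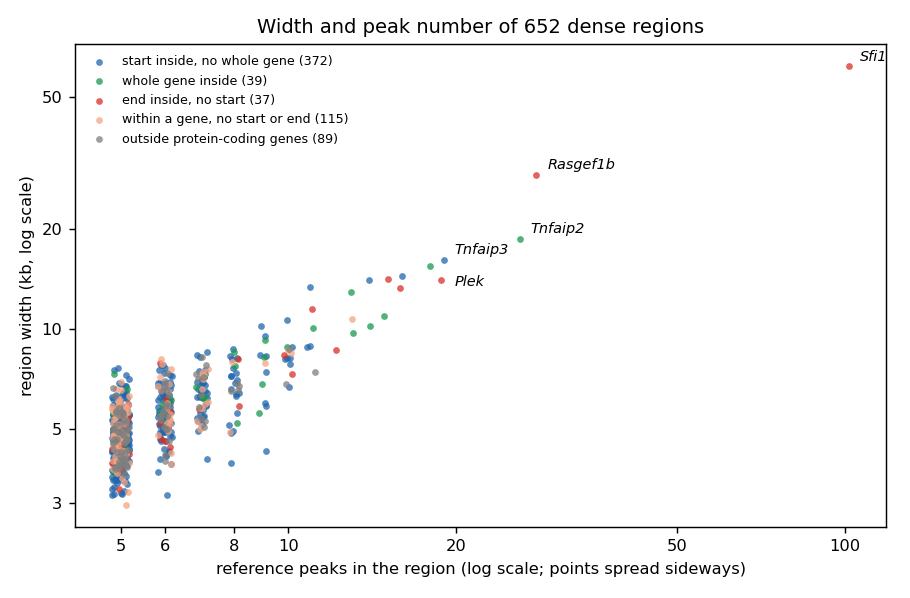
Each point is 1 of the 652 dense regions, placed by its number of reference peaks and its width in kb (both axes logarithmic) and coloured by its position relative to protein-coding genes, with the number of regions in each class in the legend. Most regions hold 5 to 9 peaks within 10 kb, and the regions at Sfi1, Rasgef1b and Tnfaip2 stand apart with 102, 28 and 26 peaks.

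The 10 regions with the most peaks lay at 10 gene loci. The largest, at chr11:3122749-3184672, had 102 peaks and 122 summits over 61.9 kb at Sfi1, reaching past the end of the gene, which encodes a centrin-binding centrosome protein. Its best summit scored 1890 and its median summit 905.5. Of its summits, 15 lay in a stretch of 38 bases found more than once in the genome, and 4 in a repeated stretch of 76 bases, the length of the reads. These counts cover exact copies only, and diverged copies were not searched for. The region also overlapped the annotated genes Pisd-ps1, Gm11399 and Gm11400.

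The next regions were smaller and held few or no repeated summits. Rasgef1b, a guanine nucleotide exchange factor for Ras-family GTPases, had 28 peaks and 59 summits over 29.1 kb (chr5:99212439-99241549), with a best score of 1877 and a median of 282. Tnfaip2, a gene induced by tumor necrosis factor, had 26 peaks and 36 summits over 18.7 kb (chr12:111440907-111459621), with a best score of 1812 and a median of 332.5. Tnfaip3 encodes A20, a deubiquitinase that restrains NF-kB signaling. Its region had 19 peaks and 23 summits over 16.2 kb (chr10:18997399-19013563), with a best score of 1581 and a median of 376. Plek encodes pleckstrin, a protein kinase C substrate of blood cells, and had 19 peaks and 29 summits over 14011 bp (chr11:16965280-16979290), with a best score of 1094 and a median of 341.

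Among the remaining regions of the 10, Acod1, the enzyme that makes itaconate, had 18 peaks and 28 summits over 15.5 kb (chr14:103046015-103061540), with 1 summit in a repeated 38-base stretch. Plec, which encodes the cytoskeletal linker plectin, had 16 peaks and 17 summits over 14.4 kb (chr15:76194628-76209032). Mx1, an interferon-induced antiviral GTPase, had 16 peaks and 25 summits over 13.3 kb (chr16:97443028-97456314). Nfkbiz, which encodes a nuclear regulator of NF-kB, had 15 peaks and 19 summits over 14.1 kb (chr16:55805110-55819247). The region of the neighbouring adhesion genes Icam1, Icam4 and Icam5 had 15 peaks and 16 summits over 10977 bp (chr9:21023307-21034283). Plec had the highest median summit score of the 10 regions, 968, near the 905.5 at Sfi1. The median was 182 at Mx1, 242 at Nfkbiz, 302.5 at the Icam genes and 690.5 at Acod1.

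These regions had different layouts. Between their outermost peaks, 83.1% of the bases lay inside peaks at Rasgef1b, 82.9% at Plek and 77.0% at Mx1, so that gaps between peaks were short there. The share was 43.8% at Plec and 47.5% at the Icam genes, where separate peaks with gaps were seen, and the median over all dense regions was 40.9%. At Plec, 13 of 17 summits lay within 1000 bp of an annotated start. At Rasgef1b, Plek, Mx1 and Nfkbiz none did.

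**Figure D2:**
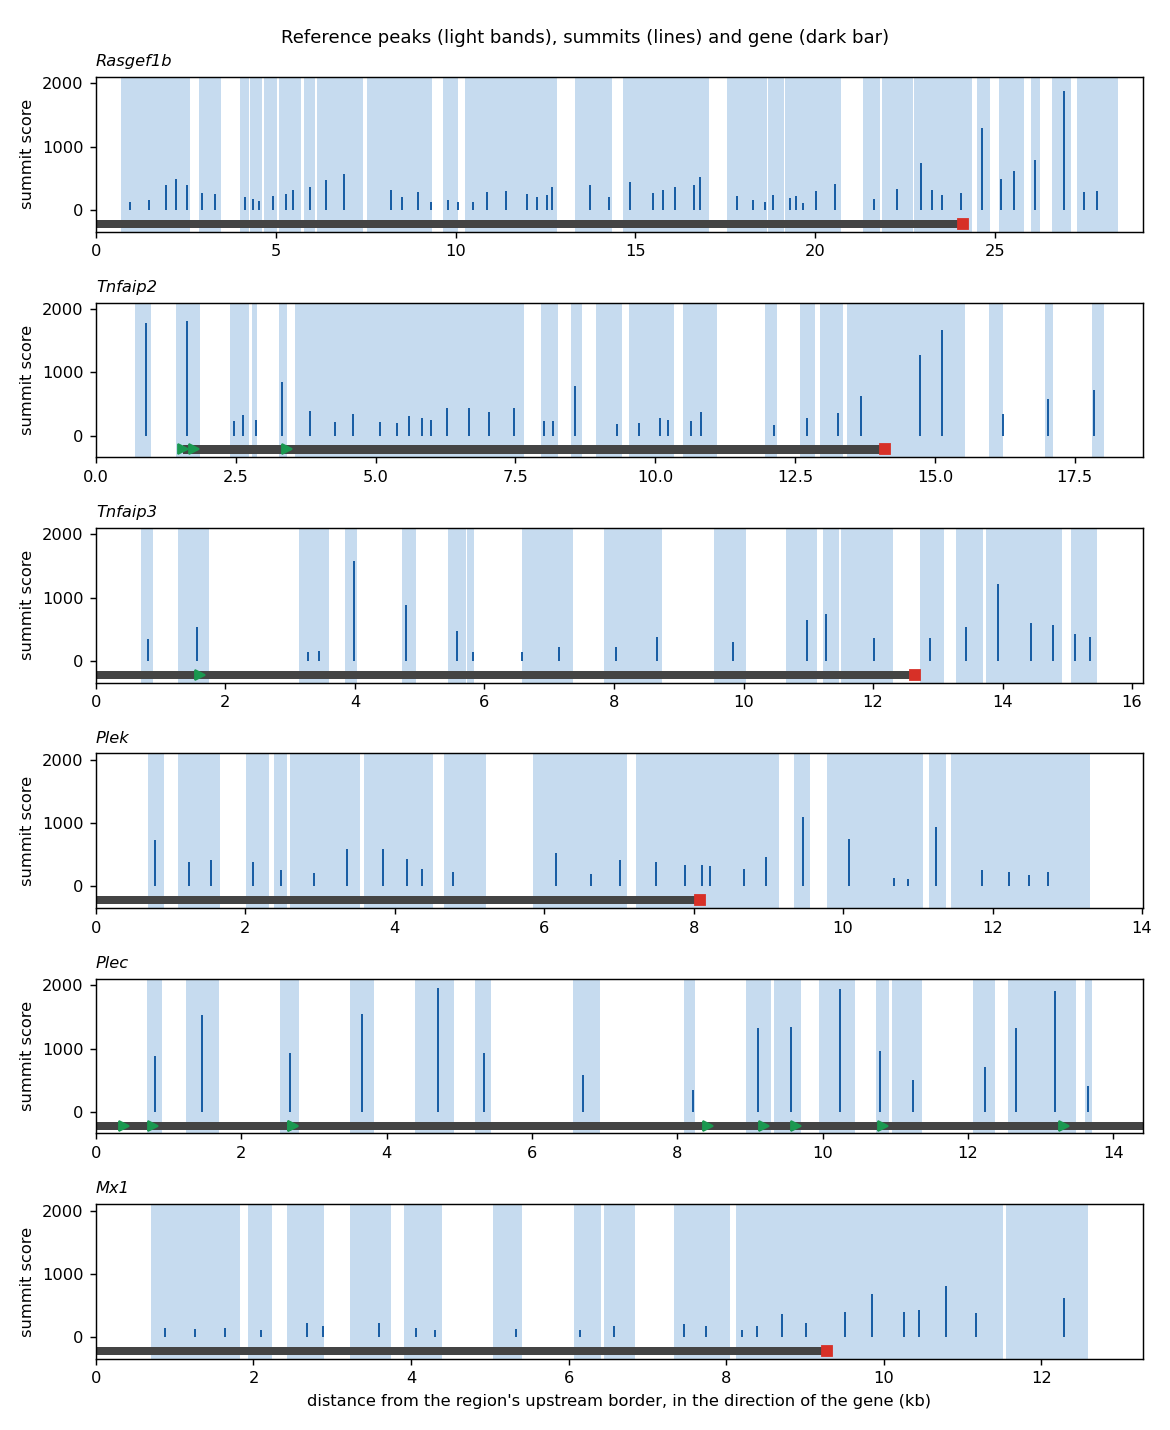
Maps of the 6 most peak-rich dense regions without repeated summits, drawn in the direction of transcription, with distance from the upstream border of the region in kb on the x axis and summit score on the y axis. Light bands are reference peaks, vertical lines are summits, the dark bar is the gene, green triangles are annotated protein-coding starts and a red square is the gene end. Rasgef1b, Plek and Mx1 show low summits along the last part of the gene and their highest summit past its end, whereas high summits at Plec accompany several start sites.

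Dense regions were next placed relative to protein-coding genes of GENCODE M21. A start was the first base of a protein-coding transcript, and an end was the last base of a gene's outermost annotation. At least 1 start lay inside 411 of 652 dense regions (63%, interval 59.3% to 66.7%), compared with 19.4% of all autosomal regions. A gene end lay inside 106 (16.3%, 13.6% to 19.3%), compared with 3.21%, and a whole gene inside 39 (5.98%, 4.41% to 8.07%), compared with 0.296%. The remaining classes comprised 372 regions with a start but no whole gene, 115 within a gene without its start or end, 89 outside protein-coding genes and 37 with an end but no start. A wide region meets more genes than a narrow one, and per length the difference was smaller. Dense regions held the starts of 12.4 genes per 100 kb, against 11.1 over all autosomal regions and 15.1 in regions with 4 peaks. They held 3.59 gene ends per 100 kb, against 1.78 and 2.65.

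From 5 peaks upward, starts and ends per length changed in opposite directions as peak number increased. Starts occurred at 14.2 genes per 100 kb in regions with 5 peaks, 13.3 with 6, 11.5 with 7 to 9 and 5.33 with 10 or more. Ends occurred at 2.97, 3.20, 4.15 and 5.77 per 100 kb. The share of regions with a start inside was 61.4% at 5 peaks, 63.5% at 6, 69.7% at 7 to 9 and 58.3% at 10 or more. It did not fall steadily. Width increased with peak number across dense regions (Spearman rho 0.642), so that starts per 100 kb fall even where this share does not. The share with an end inside was 11.1% (interval 8.27% to 14.7%) at 5 peaks, 16.1% at 6, 20.2% at 7 to 9 and 58.3% (42.2% to 72.9%) at 10 or more, or 21 of 36. Without the 12 of these 36 regions that had a summit in a repeated 38-base stretch, Sfi1 included, starts occurred at 5.63 and ends at 7.04 per 100 kb, and 66.7% had an end inside. When regions were cut at their outermost peaks, an end lay inside 7.30% of regions with 5 peaks and 55.6% of those with 10 or more.

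**Figure D3:**
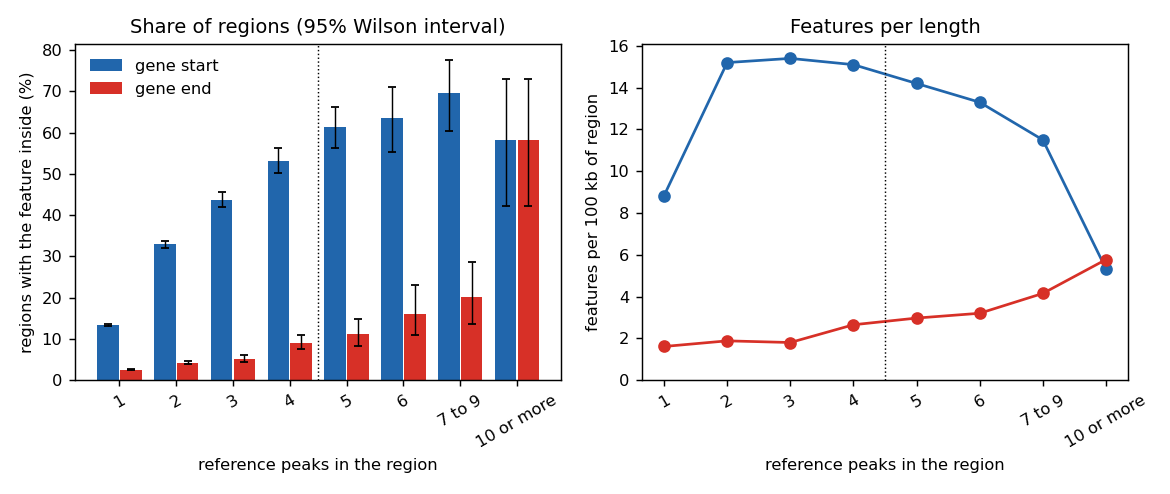
Left, the share of autosomal extended regions with a protein-coding gene start (blue) or gene end (red) inside, by the number of reference peaks, with 95% Wilson intervals. Right, starts of distinct genes and gene ends per 100 kb of region. The dotted line marks the threshold of 5 peaks, and starts fall from 14.2 to 5.33 per 100 kb from 5 to 10 or more peaks while ends increase from 2.97 to 5.77.

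The 37 dense regions with a gene end but no start were made of lower summits. Their best summit had a median score of 1141 and the median of their median scores was 505, compared with 1664 and 785 in the 372 regions with a start and no whole gene. Peaks took up a median of 55.6% of the bases between their outermost peaks, compared with 41.6%. In 25 of 37 (67.6%, interval 51.5% to 80.4%) the best summit lay past the annotated end, at a median of 996 bp beyond it over all 37 (quartiles -204 and 2238 bp). At Rasgef1b the best summit lay 2808 bp past the end, at Plek 1374 bp, at Mx1 1514 bp and at Nfkbiz 1797 bp. At Sfi1 the distance was -22036 bp, that is, the best summit lay before the end. A summit in a repeated 38-base stretch was present in 9 of the 37, compared with 21 of 372 in regions with a start and no whole gene, and the part of repeated sequence in these differences was not tested.

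The genes of this class that follow were chosen after their values were seen and do not stand for the class. Cd40, a co-stimulatory receptor, had 12 peaks with the best summit (1013) 2167 bp past its end. Cd83, a surface protein of activated antigen-presenting cells, had 11 peaks and a best score of 1248, at -204 bp, before its end. Mcl1, a survival factor of the BCL2 family, had 10 peaks and a best score of 1141, 5003 bp past its end. The regions at Socs3 and Socs1, which encode suppressors of cytokine signaling, had 5 peaks each, with best scores of 2021 and 900 at 2546 and 996 bp past the end. The regions at Ifit1, an interferon-induced gene, and Zc3h12a, which encodes the RNase Regnase-1, also had 5 peaks, with best scores of 476 and 1864 at 2971 and 3542 bp past the end. The class also included Rpl3, which encodes a ribosomal protein, with 5 peaks.

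The 39 dense regions that enclosed a whole gene contained 43 genes with a median length of 2143 bp. Of the 26 with a length of 2 kb or more, 25 had a summit within 500 bp of the most upstream start, 25 had a summit further inside the gene and 22 had a summit within 500 bp of the end, and 20 (76.9%, interval 57.9% to 89.0%) had all 3. Shorter genes were not scored. Since an extended region is built from peaks widened by 700 bp and joined, no base of an enclosed gene lies further than that from a peak, and these counts largely follow from how the regions were made. A summit in a repeated 38-base stretch was present in 11 of the 39 regions (28.2%). The enclosed genes included the cytokine genes Tnf (10 peaks), Il1b (13 peaks), Cxcl2 (8 peaks), Cxcl10 (7 peaks) and Ccl4 (6 peaks), and the transcription factor genes Junb (11 peaks), Jun (9 peaks) and Cebpd (9 peaks). Zfp36, which encodes the mRNA-destabilizing protein tristetraprolin, had 13 peaks, and Nfkbia, which encodes the NF-kB inhibitor IκBα, had 8. Gadd45b, a stress response gene, had 9 peaks. Cebpd and Gadd45b were chosen after their values were seen.

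More than 1000 bp from a start, peaks of dense regions lay more often after it than before it. In the 362 dense regions with the start of a single gene, 52.3% of the peaks within 5000 bp of a start (interval 50.1% to 54.4%, n = 2132) lay after it, compared with 43.8% in all autosomal regions with 1 such gene and 50.9% in those with 4 peaks. The share was 62.8% (59.8% to 65.8%, n = 998) for peaks 1000 to 5000 bp away, compared with 58.5% and 59%. In regions with exactly 5 peaks the shares were 50.3% and 58.2%, near those with 4 peaks. In regions with 10 or more peaks both shares were higher, at 63.5% (n = 178) and 73.1% (n = 104). Of all peaks in dense regions, 32.9% lay within 1000 bp of a start (interval 31.5% to 34.4%), compared with 22.0% over all autosomal peaks, 37.4% (35.9% to 38.8%) in regions with 4 peaks and 15.9% (13.1% to 19.2%) in regions with 10 or more peaks. The best scored summit lay at a start in 74.2% of the 411 dense regions with a start inside, in 84.3% of such regions with 4 peaks and in 96.1% of all such autosomal regions. With 10 or more peaks it did so in 8 of 21 (38.1%, 20.8% to 59.1%).

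**Figure D4:**
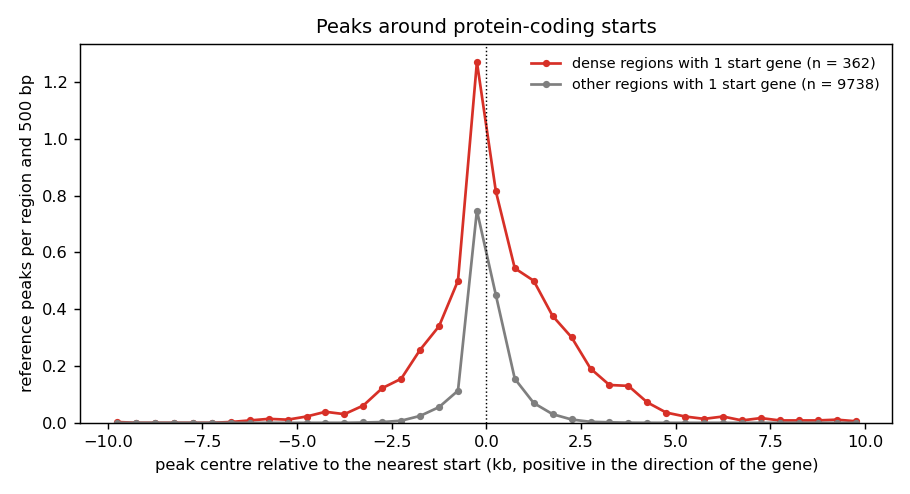
Reference peaks per region and 500 bp by the distance of the peak centre from the nearest protein-coding start, for regions with the start of a single gene (362 dense regions in red, 9738 other regions in grey). Both curves are highest in the 500 bp before the start, at 1.27 peaks per dense region, and the dense curve has a longer tail after the start, with 0.376 peaks per region between 1500 and 2000 bp.

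Genes of the LPS response and of NF-kB control often started in dense regions. The background was 454 of 20807 autosomal protein-coding genes (2.18%), or 3.93% of the 11542 genes with a start in any extended region. A gene counted where any of its annotated starts, not only the most upstream, lay in the region. Of 35 genes of a LPS response list, 13 (37.1%, interval 23.2% to 53.7%) started in a dense region, as did 8 of 18 NF-kB factors and regulators (44.4%, 24.6% to 66.3%) and 4 of 15 AP-1 and early transcription factors (26.7%, 10.9% to 52.0%). The number was 6 of 29 for macrophage identity genes (20.7%, 9.85% to 38.4%), 2 of 25 for IL-4 response genes (8%, 2.22% to 25.0%), 1 of 18 for genes used by all cells (5.56%, 0.988% to 25.8%) and 0 of 29 for genes of other tissues, with an upper Wilson limit of 11.7%. As a check of the cell type label, 28 of 29 macrophage identity genes and 3 of 29 genes of other tissues had a start in any extended region. All 35 LPS response genes had one, so that the list was made of accessible genes and is to be read against 3.93%. The lists were drawn up from general knowledge but with earlier results of these data known, so that these shares are not independent evidence, and they say nothing about whether LPS changed these regions.

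Within the LPS response list, the dense regions with the most peaks were those of Tnfaip2 with 26, Acod1 with 18 and the cytokine gene Il1b with 13 peaks (20 summits, best score 1071). Zfp36 also had 13 peaks (15 summits, best score 2100). Tnf, which encodes the cytokine TNF, and Dusp1, a MAP kinase phosphatase gene, had 10 peaks and 13 summits each, with best scores of 1877 and 1594. The chemokine genes Cxcl2 and Cxcl10 had 8 peaks (best score 1747) and 7 peaks (1594). The other 5 genes, Ccl4, Ccl5, Irf1, Cd40 and Rasgef1b, had 5 or 6 peaks in the region of a start. At Rasgef1b the dense regions did not reach the most upstream start. Other LPS response genes, chosen after their values were seen, started in regions below the threshold, with 3 peaks at Il6, Il10 and Il1a and 2 at Il12b, Nos2 and Ifnb1. Their best scores ranged from 685 at Ifnb1 to 1212 at Il6.

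The 8 dense genes of the NF-kB list were of several kinds, and none encoded a DNA-binding subunit. The grouping into kinds was made after the values were seen. Tnfaip3 had 19 peaks, Nfkbia 8, Nfkbid 7 and Nfkbie and Nfkbiz 6 each in the region of a start. At Tnfaip3 and Nfkbiz this was not the most upstream start, which lay outside the dense regions. Tnip1, which encodes a partner of A20, had 5. The kinase gene Ikbke had 7 peaks with a best score of 2140, and Birc3, which encodes a ubiquitin ligase of the pathway, had 6 with a best score of 1929. The 5 genes of the DNA-binding subunits had 4 peaks (Nfkb1, Nfkb2 and Rel) or 3 (Rela and Relb), with best scores between 1619 and 2193. The IκB-family genes Bcl3 and Nfkbib had 3 and 2 peaks.

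The other lists differed in how far they went past the threshold. All 6 dense macrophage identity genes had exactly 5 peaks. They included Csf1r, the receptor of the growth factor M-CSF (best score 2193), Spi1, which encodes PU.1 (1799), Cd68 (2021), Runx1 (1683) and the Fc receptor gene Fcgr3 (2415). All 5 summits at Fcgr3 lay in repeated 38-base stretches. In the AP-1 list, Junb had 11 peaks, Fosl2 and Jun 9 each and Ier2 5, whereas Fos, chosen after its value was seen, had 3. In the IL-4 list, Myc had 7 and Egr2 6 peaks. Actb was the single dense gene among those used by all cells, with 14 peaks, 2 of its 15 summits being in repeated 38-base stretches. Without regions that had repeated summits, the LPS list had 10 dense genes, the NF-kB list 7 and the list of genes used by all cells 0, against 2.00% of all genes and 3.60% of those with a start in any region. At a threshold of 6 peaks the LPS list kept 11 genes, the NF-kB list 7 and the macrophage identity list 0, against 1.00% of all genes and 1.81% of those with a start in any region. At 4 peaks the numbers were 17, 11 and 12, and 7 for genes used by all cells, against 5.06% and 9.12%.

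**Figure D5:**
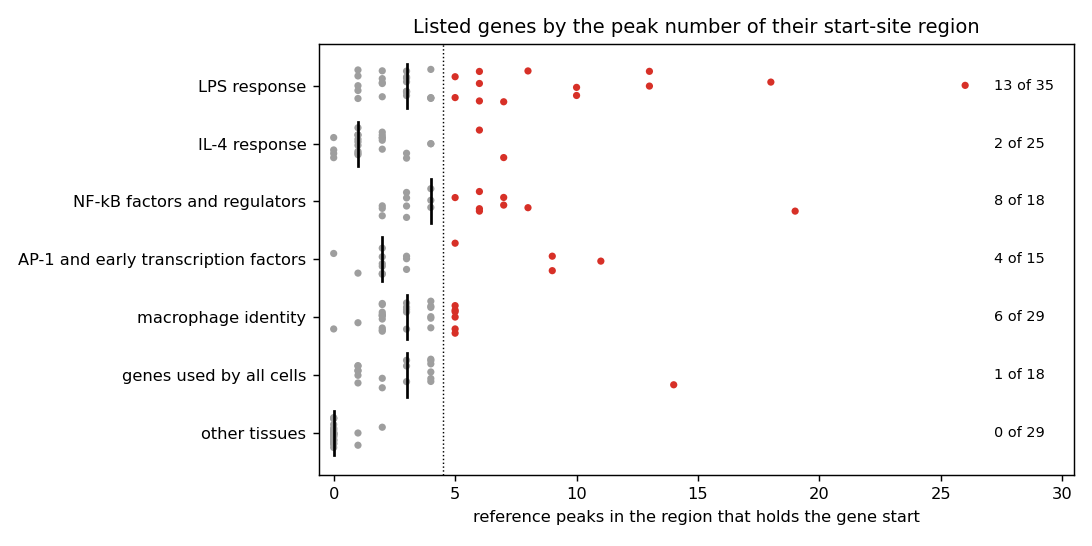
Each point is a listed gene, placed by the number of reference peaks in the most peak-rich extended region that holds a start of the gene (0 where no region does), and points are spread vertically within a list. Red points lie in dense regions, black bars are list medians and the counts at the right give dense genes of all matched genes. The LPS and NF-kB lists reach 26 and 19 peaks, the macrophage identity list stops at 5 and genes of other tissues at 2.

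Some genes were overlapped by several dense regions. This was the case for 50 of the 623 protein-coding genes that met any dense region. Rasgef1b had 3 dense regions with 38 peaks in all, spread over 171 kb (chr5:99212439-99383810). Plek had 3 with 34 peaks within 32.8 kb (chr11:16965280-16998056), and Nfkbiz 3 with 28 peaks within 27.9 kb (chr16:55805110-55833043). Nlrp3, the inflammasome sensor, and Tnfrsf1b, a TNF receptor gene, had 3 each, with 19 peaks within 25.5 and 24.9 kb. The other genes with 3 were Gm20388 (21 peaks over 1901 kb), Anp32a and Dock10 (18 each) and Mapkapk2 and Rreb1 (15 each). No gene had more than 3. At Nfkbiz the stretch of the 3 regions began past the end of the gene and stopped short of its most upstream start. A gap under 10000 bp separated 45 of 633 pairs of neighbouring dense regions.

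Dense regions away from starts were found inside genes and between them. The 115 regions within a gene had a median best score of 1418 and the 89 outside protein-coding genes one of 1456. Those outside lay a median of 23117 bp from the nearest start, 15 of them over 100 kb. Of the 89, 32 (36.0%, interval 26.8% to 46.3%) overlapped another annotated gene such as a noncoding RNA. Across all dense regions this held for 176 of 652 (27.0%). The dense region farthest from any start lay 327521 bp away, within Rad51b, a gene of DNA repair (chr12:79625084-79629028, 5 peaks, best score 759). The next were 272700 bp from Tprg (chr16:25007486-25014117, 5 peaks, best score 1025) and 236156 bp from St3gal1 (chr15:67412986-67416776, 5 peaks, best score 1456). The widest dense region with 5 peaks covered 7644 bp at the start of Rasa3 (chr8:13670949-13678592).

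The consensus motifs at summits differed between dense and other regions. Searches covered the 100 bp either side of a summit and both strands. A window counted once for each motif, and overlaps between motifs were allowed. NF-kB and SP/KLF (GGGCGGG) were more frequent in dense regions, and 8 of the 11 motifs were less frequent. The NF-kB consensus occurred at 7.32% of 4424 summits in dense regions (interval 6.59% to 8.13%), compared with 5.48% at other autosomal summits and 5.58% over all. At starts the shares were 8.37% and 4.83%, and away from starts 6.82% (5.97% to 7.78%) and 5.67%. SP/KLF occurred at 12.8% (11.9% to 13.8%) compared with 10.9%. At starts its order was the opposite, with 27.1% compared with 36.4%, and away from starts it was 5.99% compared with 3.57%.

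Motifs of factors that maintain macrophage enhancers were less frequent in dense regions. AP-1 occurred at 13.9% of summits (interval 12.9% to 15.0%) and 19.8% of other summits, and PU.1/ETS at 6.53% (5.84% to 7.30%) and 9.24%. RUNX (TGTGGTT) occurred at 6.28% and 8.01%, C/EBP (TTGCNNAA) at 9.72% and 11.4%, and the IRF consensus at 2.78% and 3.69%. The shares for STAT (TTCNNNGAA) were 6.15% and 6.38%, with the second inside the interval of the first (5.48% to 6.89%), and those for STAT6 (TTCNNNNGAA) were 6.06% and 6.86%. CTCF, the factor of chromatin loop borders, was 1.08% (0.819% to 1.44%) in dense and 3.16% in other regions. The order also depended on position, since 6 motifs were more frequent in dense regions at starts. Beside NF-kB these were AP-1 (8.23% and 6.68%), PU.1/ETS (5.30% and 3.98%), C/EBP (8.16% and 6.20%), STAT6 (4.67% and 3.83%) and STAT (4.67% and 4.33%). STAT6 and STAT each rest on 67 of 1434 dense summits at starts. No interval was computed for these shares, so that small differences may lie within counting error. The HNF1 consensus, a control for a factor of liver and kidney, had no match at any of the 83038 autosomal summits, so that its absence from dense regions carries no information. Within dense regions, AP-1 was at 24.3% of the summits of regions within a gene and at 11.3% of those of regions with a start and no whole gene, and PU.1/ETS at 10.5% and 6.12%. NF-kB was at 5.16% and 8.81%, and at 3.41% in regions with an end and no start.

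The NF-kB consensus was found within 100 bp of a summit in 15 of the 21 dense regions of LPS and NF-kB list genes and in 255 of all 652 (39.1%). It was found in 24.4% of regions with 4 peaks and 7.58% of all autosomal regions, and such counts rise with the number of summits. In dense regions the same count was 59.5% for AP-1 (51.2% with 4 peaks and 25.6% over all autosomal regions). It was 52.0% for SP/KLF (44.1% and 13.4%) and 48.2% for C/EBP (36.7% and 15.3%). In 5 of the listed genes a match lay within 30 bp of a summit clear of exons. They are shown because they place the consensus at accessible sites of NF-kB inhibitors and LPS response genes, and were chosen after the matches were seen. Capitals mark the match, on the plus strand of GRCm38.p6, and the window covers 61 bases around the best scored such summit.
Cxcl2 chr5:90903800-90903860: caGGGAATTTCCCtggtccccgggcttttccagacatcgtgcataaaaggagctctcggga
Tnfaip2 chr12:111456004-111456064: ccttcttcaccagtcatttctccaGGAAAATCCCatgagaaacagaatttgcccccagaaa
Nfkbia chr12:55491916-55491976: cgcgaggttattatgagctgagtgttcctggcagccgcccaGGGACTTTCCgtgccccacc
Nfkbie chr17:45557541-45557601: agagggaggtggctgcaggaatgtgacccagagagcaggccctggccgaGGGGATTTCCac
Nfkbiz chr16:55820649-55820709: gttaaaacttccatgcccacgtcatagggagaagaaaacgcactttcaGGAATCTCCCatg
At Cxcl2 the summit (score 1747) lay 41 bp before the start, and the window held 2 overlapping matches. At Nfkbia it lay 701 bp after the start (score 1308), at Nfkbie 1868 bp after it (1248), at Tnfaip2 13565 bp after the most upstream start (1670) and at Nfkbiz 18220 bp after the most upstream start (402). A consensus match describes the letters and does not show that a factor was bound.

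Some dense regions lay in repeated sequence. At least 1 summit lay in a stretch of 38 bases found more than once in the genome in 64 dense regions (9.82%, interval 7.76% to 12.3%), compared with 3.33% of all autosomal regions, and in a repeated stretch of 76 bases in 26 (3.99%), compared with 1.33%. A region with more summits has more chances of one, and at 38 bases the share was 2.88% at 1 peak and 6.58% at 4 peaks. By another measure, repeat-masked bases made up a mean of 13.7% of the window around summits of dense regions and 13.2% around all autosomal summits. A read no longer than such a stretch cannot be placed uniquely. The 2 dense regions with the highest best scores were of this kind. They lay at the start of the assembled chromosome 9, at chr9:3000048-3009316 (best score 2781, 10 of 10 summits repeated) and chr9:3021693-3028368 (2758, 7 of 8), over the predicted genes Gm10722 and Gm10718. The third was the region at Fcgr3 with 2415. The next were E2f3, which encodes a cell cycle transcription factor (2402), and Alcam, which encodes an adhesion molecule (2349), both without a repeated summit. Without the 64 regions, the number of dense regions was 588, and 64.5% had a start and 14.1% an end inside.

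Dense regions occurred on all 19 autosomes, at 7.48 to 16.6 per 1000 extended regions, with the highest value on chromosome 11. They contained 24 of 2054 annotated autosomal miRNA genes, and 260 lay in any autosomal extended region. Among the 24 were Mir142, a miRNA gene of blood cells, in a region with 8 peaks at the start of Tspoap1, Mir22 in a region with 6 peaks, and the neighbours Mir191 and Mir425 in a region with 6 peaks. These genes were chosen after their values were seen.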

How the data were processed

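BMDM ATAC-seq libraries (18, single-end) were processed by the authors: adapters were removed (BBDuk), reads trimmed (Trimmomatic 0.39), aligned to mm10 (ShortStack), filtered (SAMtools 1.9), and peaks called with MACS2 2.2.6 (versions from the submitters' processing notes), with duplicates kept and summits called. PCR copies can thus add to a summit's height, and no shift towards the Tn5 cut is named. Peaks passing a q-value filter in single libraries and overlapping between replicates were pooled over all libraries. The deposited lists hold positions and, for summits, a score whose scale the authors do not state. The other columns are placeholders. No depth or precision per library could be derived, and replicates could not be compared.

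Positions are 1-based mm10. Reference peaks widened by 700 bp and joined gave all 59617 extended regions to the base. Peaks, summits and starts were assigned to regions in Python 3.11.15 (pandas 2.3.3, numpy 2.4.6, scipy 1.17.1, pysam 0.24.0), tested on simulated peaks. Genes came from GENCODE M21 (20807 autosomal protein-coding genes) and sequence from GRCm38.p6. A start site window was 1000 bp. Repeats were found by counting the 38 and 76 bases centred on each summit on both strands of the primary chromosomes. No test across features was made. Shares carry 95% Wilson intervals.

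The members, 7 gene lists (173 genes) and 11 motifs were chosen with earlier results of these data known. Named are the 10 regions with the most peaks, the 5 best scored, the widest with 5 peaks and the 3 farthest from a start. Also named are the genes tied for the most dense regions, up to 8 list genes in order of peak number and the sequences of 6 regions. Some items that the rule selects are not reported here. Genes outside this rule were chosen after their values were seen. Alternatives were other peak thresholds, flanks, borders, start sets, windows and the removal of regions with repeated summits.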

Additional observations from a re-analysis of the deposited data

How the results depend on the processing

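Without columns per library, no replicate could be left out, and the depth behind a summit is unknown. No paired analysis was possible because the lists hold no value per library. The alternatives without repeated regions for starts, ends, peaks at starts, spacing, downstream peaks and lists, and the outermost-peak border for ends in regions of 10 or more peaks, were chosen after seeing the data. Of 35 alternatives of the 9 main results, 18 stayed within the counting interval or within 1.5 times the count, and 17 moved. The cause was not tested, except where the alternative changes the definition itself.

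The number of dense regions (652) was 1670 at 4 and 282 at 6 peaks, 245 with flanks of 350 bp and 1599 with flanks of 1400 bp, and 70 when only peaks at or above the median score were joined, which removes the weaker peaks by construction. The share with a start inside was 70.4% with the starts of all genes. The share with an end inside was 12.7% between the outermost peaks. The share of peaks at a start (32.9%) was 22.1% within 500 bp, 52.6% within 2500 bp, 35.2% at a threshold of 4 peaks, 30.8% at 6 and 35.0% without repeated regions. The median summit score (737) was 675 away from starts and 1606 for the best summit of each region. The median summit distance (600 bp) was 644 bp with exactly 5 peaks and 621 bp without repeated regions. The share of peaks after the start (52.3%) was 49.8% within 2500 bp. The number of motifs more frequent in dense regions was 2 at every window and away from starts. The LPS list had between 10 genes, without repeated regions, and 19, where any overlap with the gene counted. Under that overlap setting the background was 623 of 20780 protein-coding genes.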
